A study of Mus musculus with 37 samples.

Results

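A run of 9 neighbouring V genes of the T cell receptor beta (TRB) locus is known to be missing from the genome of FVB/N mice, an inbred strain. The labels give FVBN as the genotype of 5 of the libraries and name no strain for the MMTV-PyMT mice. The values below are those of every clonotype whose best V gene was one of these 9 segments, which are TRBV12-1, TRBV12-2, TRBV13-1, TRBV13-2, TRBV13-3, TRBV14, TRBV15, TRBV16 and TRBV17. They numbered 1385 of 1704980 listed clonotypes, held 73141 reads, and occurred in each of the 37 libraries. The other 12 TRBV segments in the tables, called retained segments here, held 1703595 clonotypes. The members were chosen by gene name and not by any measured value.

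Each library was made from genomic DNA of lymph node, so reads come from rearranged genes rather than from RNA. At d105 there were 6 MMTV-PyMT mice given PLX+PTX+aPD-1 and labelled R, 4 given the same agents and labelled NR, 6 given PLX+PTX, 2 given PTX, and 5 libraries of FVBN mice labelled WTNT. The d95 libraries came from MMTV-PyMT mice only: 5 labelled R, 3 labelled NR, 3 given PLX+PTX and 3 given PTX. MMTV-PyMT is a transgene that drives polyoma middle T antigen from a mammary-active viral promoter and gives mammary tumors. PLX3397 (pexidartinib, an inhibitor of the macrophage receptor CSF1R) was fed from 80 days of age at an average of 40 mg/kg per day. PTX was injected at 10 mg/kg every 5 days from 85 days of age. The antibody aPD-1, or its isotype control, was given at 1 mg and then at 0.5 mg every 5 days, starting at 87 days of age; the labels do not tie the isotype control to a group. The MMTV-PyMT mice were female littermates, and tissue was digested to single cells before DNA extraction, with no sort for T cells described. The labels do not spell out R, NR or WTNT, and no label says what was given to the WTNT mice.

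A TRB gene is made in a developing T cell by joining 1 of the V segments to a D and a J segment, with bases trimmed and added at each joint. The joint encodes the third complementarity-determining region (CDR3), the loop that contacts the antigenic peptide, and it opens with a cysteine codon at the end of the V segment. Some mouse strains carry a deletion that takes out a block of V segments, among them the Vβ5 and Vβ8 families of the older naming, and a T cell with such a genome has no template from which to join these segments. In other strains, TRBV13-2 (older name Vβ8.2) is the V segment most used by invariant natural killer T cells.

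In the RefSeq gene order the 9 segments stood in 1 run on chromosome 6, positions 12 to 21 of the V genes, between the pseudogenes Trbv11 and Trbv18. The run held 1 other gene, the pseudogene Trbv12-3. RefSeq is used here only for names and order, since the sources used here name no genome build for the tables.

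The CDR3 starts of the segments are shown because they set what can be told apart inside a CDR3. They were read from deposited alignments of the clonotypes themselves. Only alignments that carried no mismatch were used, and runs of palindromic bases that some aligned ends carried were taken off. A single palindromic base was not taken off, so the last base of a start may still be palindromic. Bases in capitals follow the longest stretch shared with any retained segment.
TRBV12-1: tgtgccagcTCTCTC
TRBV12-2: tgtgccagcTCTCTCG
TRBV13-1: tgtgccagcagtGATGC
TRBV13-2: tgtgccagcGGTGATG
TRBV13-3: tgtgccagcagtGATG
TRBV14: tgtgccagcagtTTC
TRBV15: tgtgccagcagtTTAGC
TRBV16: tgtgcAAGCAGCTTAG
TRBV17: tgtgctagcagtAGAGA
The first 12 bases of TRBV13-1, TRBV13-3, TRBV14, TRBV15 and TRBV17 were therefore also those of a retained segment. For TRBV12-1, TRBV12-2 and TRBV13-2 this held for 9 bases and for TRBV16 for 5.

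Library totals ran from 1090573 to 2831566 reads at d105 and from 90648 to 917752 reads at d95, so the ranges did not overlap and day cannot be told apart from depth. One d95 library, NR replicate 1, had 90648 reads and 2470 clonotypes. No molecular identifiers are described for these reads, so intervals and limits from 0 reads cover counting error only. Each MMTV-PyMT library carries its own mouse number in the labels. The 5 WTNT libraries carry no mouse number, so nothing in the labels shows that they came from separate mice. P-values measure the spread between these libraries, which may be technical for WTNT.

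Reads and clonotypes were spread very differently over the 9 segments. TRBV12-1 held the most clonotypes, 500 with 1668 reads, and TRBV13-2 the most reads, 56495 in 257 clonotypes or 77.2% of the reads of the 9. TRBV13-3 had 6724 reads in 227 clonotypes and TRBV13-1 had 5449 in 208. TRBV14 had 1212 reads in 94 clonotypes, TRBV12-2 had 765 in 28, TRBV16 had 598 in 25, TRBV17 had 117 in 4 and TRBV15 had 113 in 42. TRBV30, the retained segment with the fewest clonotypes, had 9955 clonotypes and 407229 reads.

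Single reads made up much of the list. Of the 1385 clonotypes, 65.6% rested on 1 read, against 21.1% in retained segments. The share was 90.4% for TRBV12-1, 64.3% for TRBV15, 59.0% for TRBV13-3, 52.4% for TRBV13-1, 50.0% for TRBV14 and 47.9% for TRBV13-2. TRBV16 was unlike these, with 20% single reads, a median of 27 reads per clonotype and 17 of 25 clonotypes at 10 reads or more. All 4 TRBV17 clonotypes had at least 10 reads. Over the 9 segments, 319 clonotypes with at least 10 reads held 98% of the reads.

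**Figure D1:**
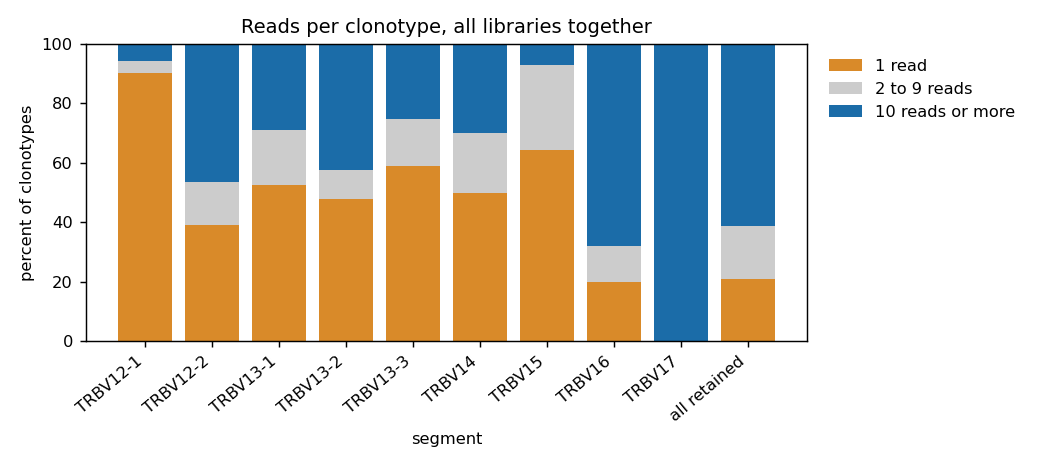
Share of clonotypes (percent, vertical axis) with 1 read, 2 to 9 reads and 10 reads or more for each of the 9 segments and for all retained segments together, over the 37 libraries. TRBV12-1 stands out with 90.4% of its clonotypes at 1 read, against 21.1% for the retained segments.

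The presence of the segments by library was uneven. TRBV13-1 was listed in 37 libraries, TRBV12-1 in 36, TRBV13-2 in 35, TRBV13-3 in 32, TRBV15 in 24, TRBV14 in 23, TRBV16 in 18, TRBV12-2 in 15 and TRBV17 in 4. At d105 TRBV12-1, TRBV13-1, TRBV13-2 and TRBV13-3 were found in 23 of 23 libraries. TRBV16 was found in 18 d105 libraries and in none of 14 d95 libraries, and TRBV17 in 4 and in none. Levels are given below as RPM, the reads of a segment or clonotype divided by the total reads of its library and scaled to 1000000.

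**Figure D2:**
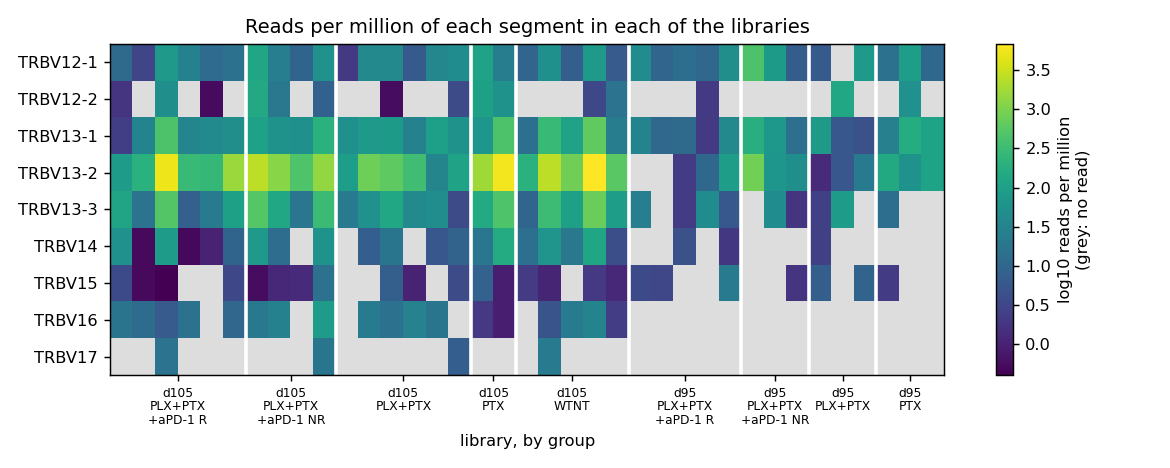
RPM (log10 colour scale, grey where no read was listed) of each of the 9 segments (rows) in each library (columns, by group). TRBV13-2 is the brightest row at d105, and the rows of TRBV16 and TRBV17 are grey in all 14 d95 libraries.

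The 9 segments together held between 0.00240% and 0.838% of the reads of a library. Shares and RPM are of the deposited reads without rescaling. In the normalized clone count, described below, each library had a lower share. It was 0.270% in place of 0.838% in WTNT replicate 4, and 0.00127% in place of 0.00240% in d95 R replicate 2. In R mice at d105 the 6 shares were 0.0298%, 0.0270%, 0.647%, 0.0374%, 0.0339% and 0.174%. The 4 NR mice had 0.360%, 0.147%, 0.0558% and 0.215%. The PLX+PTX mice lay between 0.0171% and 0.0981%, with a median of 0.0350%, and the 2 PTX mice had 0.218% and 0.678%. The 5 WTNT libraries had 0.0252%, 0.335%, 0.107%, 0.838% and 0.0701%, so mice without the transgene spanned nearly the whole range of the others. Both PTX values lay above all 6 PLX+PTX values, while R, NR and WTNT values overlapped.

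At d95 the shares were lower. R mice had 0.0109%, 0.00240%, 0.00346%, 0.00716% and 0.0211%, and NR mice 0.149%, 0.0267% and 0.00769%. The PLX+PTX mice had 0.0102%, 0.0234% and 0.0112%, and the PTX mice 0.0210%, 0.0379% and 0.0240%. The d95 value of 0.149% came from NR replicate 1, in which 135 reads of 90648 were listed under the 9 segments.

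**Figure D3:**
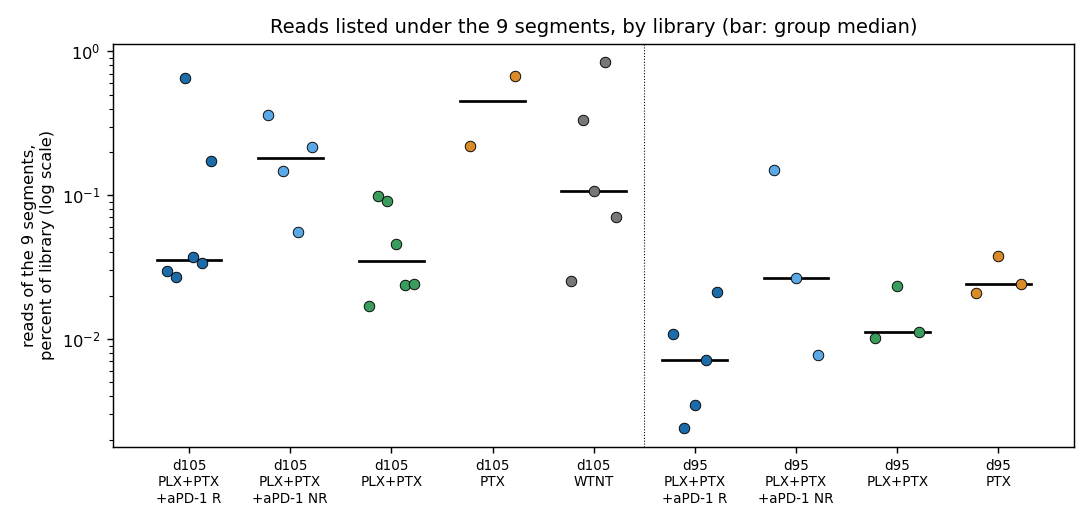
Percent of each library's reads (log scale) listed under the 9 segments. Points are libraries and bars are group medians; the 23 d105 libraries lie between 0.0171% and 0.838%, and the 14 d95 libraries between 0.00240% and 0.149%.

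Treatment comparisons at d105 were tested with edgeR's quasi-likelihood test on reads and on clonotypes per segment, with p-values adjusted over all TRBV segments. For R against NR, 0 of 9 listed segments passed an adjusted p of 0.05 in reads, where the lowest adjusted p was 0.493, and 0 of 9 in clonotypes; 0% and 4.76% of all 21 segments passed. None of the 9 had an unadjusted p under 0.05. The median log2 difference of the 9 was -0.92 in reads and -0.46 in clonotypes, beside -0.15 and -0.10 over all segments tested.

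When aPD-1 was added to PLX+PTX at d105, 0 of 9 segments passed by edgeR in reads or in clonotypes, as did 0% of all segments in each. Unadjusted, 2 of the 9 were under 0.05 in reads and 0 in clonotypes. All 9 log2 differences were above 0 in reads, with a median of 1.47 beside 0.06 over all segments, and the lowest adjusted p was 0.277. With the lower or higher range of mouse numbers as a covariate, the median was 0.54, 7 of the 9 differences were above 0 and the lowest edgeR adjusted p was 0.946. The R, NR and PLX+PTX libraries also stand in the comparisons before and after this one.

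PLX+PTX against PTX at d105, which asks what PLX3397 added to PTX, gave the lowest adjusted p-values of the d105 comparisons for these segments, without a call. By edgeR 0 of 9 segments passed in reads and 0 in clonotypes, with 3 and 4 at an unadjusted p under 0.05; 4.76% and 0% of all 21 segments passed. TRBV13-2 averaged 331 ± 309 RPM in PLX+PTX mice and 3676 ± 2764 in PTX mice (SD, n = 6 and 2), a log2 difference of -3.47 ± 1.21 (SE, edgeR adjusted p = 0.0618). TRBV12-2 averaged 0.720 ± 1.51 and 80.0 ± 30.2 RPM in the same groups, a log2 difference of -6.81 ± 2.35 with the same edgeR adjusted p. With the mouse number range as a covariate the log2 difference was -1.89 ± 1.5 for TRBV13-2 and -5.61 ± 3.44 for TRBV12-2 (SE, edgeR adjusted p = 0.59 each). With TMM scaling 2 segments passed in clonotypes, with DESeq2 2, and with limma on log shares 3; limma called 1 in reads. Only 2 PTX libraries stand behind these values.

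MMTV-PyMT mice against WTNT mice at d105 gave 0 of 9 calls by edgeR in reads (lowest adjusted p 0.559) and 0 of 9 in clonotypes (lowest 0.598), with 0 of the 9 at an unadjusted p under 0.05 in either. Of all 21 segments 0% and 4.76% passed. The median log2 difference of the 9 was -1.06 in reads and -0.06 in clonotypes, beside -0.03 and -0.02 over all segments.

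Mouse numbers in the labels fall into a lower and a higher range at d105, and the listed share moved with them. It averaged 0.0367% ± 0.0304 in the 6 lower-numbered MMTV-PyMT mice and 0.225% ± 0.226 in the 12 higher-numbered ones (SD). The lower range held 2 of the 6 R mice and 4 of the 6 PLX+PTX mice, and no NR or PTX mouse, so it overlaps in part with treatment. Within the higher range the share averaged 0.223% ± 0.290 in 4 R mice, 0.195% ± 0.128 in 4 NR mice, 0.0685% ± 0.0320 in 2 PLX+PTX mice and 0.448% ± 0.325 in 2 PTX mice. In the lower range it averaged 0.0284% ± 0.0020 in 2 R mice and 0.0408% ± 0.0384 in 4 PLX+PTX mice. With the range as a covariate in the 18 MMTV-PyMT libraries, edgeR called 0 of 9 segments in reads and in clonotypes in the 3 treatment comparisons. The median log2 difference of the 9 in reads was -0.64 for R against NR and -1 for PLX+PTX against PTX, in place of -0.92 and -1.95 without it. What the numbers stand for beyond the mouse is not given.

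At d95, 7 of the 9 segments had reads and were tested. The only call was in clonotypes between R and NR, for TRBV13-1, at 4, 3, 3, 1 and 2 clonotypes in the R libraries and 4, 6 and 6 in the NR libraries. That was 0.971 ± 0.317 per 10000 clonotypes in R and 7.83 ± 7.26 in NR (SD, n = 5 and 3), a log2 difference of -2.20 ± 0.57 (SE, edgeR adjusted p = 0.0278). It was the single call among all 19 segments tested, or 5.26%. The shallow library NR replicate 1 had 16.2 TRBV13-1 clonotypes per 10000 from 4 clonotypes; without it the log2 difference was -1.79 (edgeR adjusted p = 0.0464). The call was lost in 4 of 8 repeats that left out 1 library each, with R replicates 2, 4 and 5 and NR replicate 2, where the edgeR adjusted p reached 0.0772. In reads 0 of 7 passed for R against NR, with 1 at an unadjusted p under 0.05. When aPD-1 was added to PLX+PTX, 0 of 7 passed by edgeR in reads or clonotypes, with 1 and 0 unadjusted; for PLX+PTX against PTX these counts were 0 and 0 throughout. In these last comparisons 0% of all 19 segments passed, as in the reads of R against NR.

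Between days, reads of the listed segments differed, as did those of most segments. In MMTV-PyMT mice, 5 of 9 were higher at d105 than at d95 in reads by edgeR, and 71.4% of all 21 segments passed in either direction. TRBV13-2 averaged 1259 ± 1680 RPM at d105 and 102 ± 220 at d95 (SD, n = 18 and 14), a log2 difference of 4.75 ± 0.89 (SE, edgeR adjusted p = 2.98e-05). TRBV13-3 averaged 149 ± 177 and 16.7 ± 26.6 RPM, with 2.94 ± 0.91 on the log2 scale, and TRBV14 averaged 29.1 ± 43.6 and 0.654 ± 1.41, with 4.84 ± 1.14. The median log2 difference of the 9 was 2.94, beside 0.53 over all segments. It was 2.40 with TRBV16 and TRBV17, which had 0 reads at d95, set against the floor given next.

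TRBV16 had 504 reads in 14 of 18 MMTV-PyMT libraries at d105 and 0 reads in 14 libraries at d95. Against a floor of 3 reads over all d95 libraries, 0.442 RPM, its 15.4 RPM at d105 were 34.9-fold higher (edgeR adjusted p = 0.000399). TRBV17 had 76 reads in 3 of the 18 d105 libraries, from 1 clonotype in each, and 0 at d95. It was 5.27-fold higher by the same floor and did not pass (edgeR adjusted p = 0.0598). Reads of the same clonotype are not separate counts, and TRBV16 had at most 3 clonotypes in a d105 library. Neither fold is therefore a lower limit on the difference between days.

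The calls for TRBV13-1 and TRBV13-2 changed with what was left out. TRBV13-1 averaged 108 ± 131 RPM at d105 and 55.3 ± 61.9 at d95, a log2 difference of 1.36 ± 0.60 (SE, edgeR adjusted p = 0.0445). It was lost in 16 of 32 repeats that left out 1 library, and without R replicate 3 of d105 the log2 difference was 0.79 (edgeR adjusted p = 0.149). Without the reads of its commonest clonotype, described below, TRBV13-2 had a log2 difference of 1.96 (edgeR adjusted p = 0.0512).

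In clonotypes, 2 of 9 segments were higher at d105 by edgeR, where 57.1% of all 21 segments passed in either direction. TRBV14 had 0.723 ± 0.622 per 10000 clonotypes at d105 and 0.0872 ± 0.173 at d95 (SD), a log2 difference of 2.38 ± 0.81 (SE, edgeR adjusted p = 0.0116). TRBV16 had 0.187 ± 0.140 at d105 and none at d95 (edgeR adjusted p = 0.0105), and DESeq2 did not call it (adjusted p = 0.402). TRBV13-2 and TRBV13-1, higher at d105 in reads, had log2 differences of -0.16 and -0.69 in clonotypes, neither past the threshold.

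Most TRBV12-1 clonotypes carried a CDR3 inside the CDR3. In 367 of 500 (73.4%, 95% Wilson interval 69.4 to 77.1) the base sequence held a second start, the first 9 bases of a retained segment's CDR3, at base 10 or later. In 365 of them it came after 18 bases. The first 18 bases were the same in 293 of them, and the first 15 of these bases were the TRBV12-1 start given above. These 367 had a mean CDR3 length of 19.8 amino acids, the stretch from the second start on 13.8, and the other 133 TRBV12-1 clonotypes 13.4.

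The stretch from the second start was, base for base, the CDR3 of a retained clonotype in the same library for 350 of the 367 (95.4%, 95% Wilson interval 92.7 to 97.1), and in 342 of these the TRBJ was also the same. On average 9.07% of the other libraries of the same day listed the same stretch. Pairs from 3 libraries are shown to make this visible, each with the retained clonotype of the same library under it; capitals mark the shared stretch.
TRBV12-1 TRBJ2-3 in WTNT replicate 2, 1 read: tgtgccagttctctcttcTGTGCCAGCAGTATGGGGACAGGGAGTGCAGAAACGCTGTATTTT
TRBV19 TRBJ2-3 in WTNT replicate 2, 2194 reads: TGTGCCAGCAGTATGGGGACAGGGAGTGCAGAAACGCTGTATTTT
TRBV12-1 TRBJ2-7 in d105 NR replicate 1, 1 read: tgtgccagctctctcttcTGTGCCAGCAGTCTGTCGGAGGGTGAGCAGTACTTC
TRBV26 TRBJ2-7 in d105 NR replicate 1, 1446 reads: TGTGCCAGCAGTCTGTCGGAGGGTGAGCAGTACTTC
TRBV12-1 TRBJ2-5 in d105 PLX+PTX replicate 5, 1 read: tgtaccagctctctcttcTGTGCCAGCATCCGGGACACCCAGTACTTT
TRBV24 TRBJ2-5 in d105 PLX+PTX replicate 5, 367 reads: TGTGCCAGCATCCGGGACACCCAGTACTTT
Of the 367, 359 had 1 read, and together they had 432 reads. The matched retained clonotypes had a median of 44 reads, with a range of 1 to 2194, beside a median of 18 for retained clonotypes of those libraries. TRBV24 gave 113 of the matches, TRBV2 70, TRBV19 63, TRBV3 39, TRBV4 27, TRBV5 23, TRBV26 14 and TRBV29 1.

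The double start was counted in the other segments too. It was found in 0 of the 885 clonotypes of the other 8, which allows a share of up to 0.339%, and in 391 of 1703595 retained clonotypes (0.0230%), of which 316 were TRBV24. Among 48 TRBV12-1 clonotypes with at least 2 reads, 8 (16.7%) had it. By library the count ran from 0 to 51, with 51 in WTNT replicate 2 and at most 27 in any other. It was present in 23 of 23 libraries at d105 with 342 clonotypes, and in 10 of 14 at d95 with 25. The TRBV12-1 clonotypes without it numbered 93 at d105 and 40 at d95, and 25 of them had at least 10 reads.

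**Figure D4:**
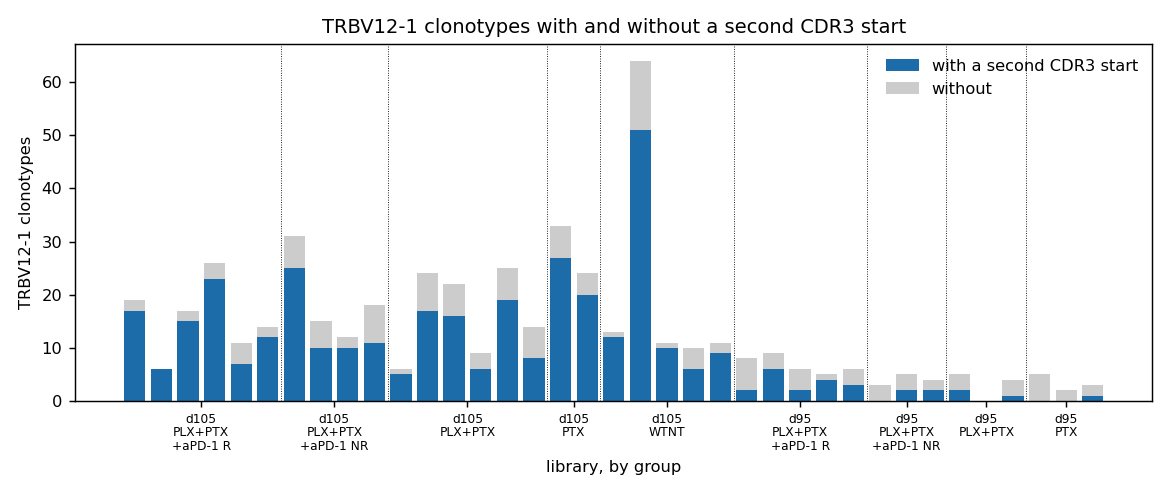
Number of TRBV12-1 clonotypes per library, split into those with a second CDR3 start (blue) and those without (grey). WTNT replicate 2 has 51 with the second start, and each of the 23 d105 libraries has at least 5.

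A few clonotypes held nearly all the reads and recurred between mice. The 1385 clonotypes were 1221 distinct combinations of TRBV, TRBJ and CDR3 bases, of which 37 (3.03%) were in at least 2 libraries. These 37 held 85.5% of the reads, and the 10 found in at least 5 libraries held 83.6%. Among 1426320 distinct retained clonotypes, 9.81% were in at least 2 libraries and held 32% of reads. When each listing in a library was counted, the order turned with the reads behind a clonotype. A clonotype in many libraries counts many times in this way, and 3 listed ones were in 27, 21 and 17 libraries. Counted per library, 5.07% of listed and 9.81% of retained clonotypes with 1 read were also in another library, against 36.7% of listed and 29.7% of retained ones with at least 10 reads. The sequences of the most widespread ones are given because they carry most of the signal; capitals mark the bases from the 5′ end that match the start of their own segment.
TRBV13-2 TRBJ2-5, 27 libraries: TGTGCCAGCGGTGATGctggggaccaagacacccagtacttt
TRBV13-1 TRBJ1-2, 21 libraries: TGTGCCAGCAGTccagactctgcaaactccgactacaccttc
TRBV13-3 TRBJ2-4, 17 libraries: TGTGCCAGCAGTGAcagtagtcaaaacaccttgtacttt
TRBV13-1 TRBJ2-7, 15 libraries: TGTGCCAGCAGTGATGagcagtacttc
TRBV14 TRBJ2-4, 14 libraries: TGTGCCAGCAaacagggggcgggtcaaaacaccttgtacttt
TRBV14 TRBJ2-5, 13 libraries: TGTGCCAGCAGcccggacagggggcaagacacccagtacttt
The TRBV13-2 clonotype and the TRBV13-1 clonotype with TRBJ2-7 matched 16 bases of their own segment and the TRBV13-3 clonotype 14, past what any retained segment shares. The other 3 stopped at 12, 10 and 11 bases, within the stretch that retained segments share.

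The TRBV13-2 clonotype with TRBJ2-5 was in 22 of 23 libraries at d105 and 5 of 14 at d95. It had 51541 reads, which were 91.2% of the TRBV13-2 reads and 70.5% of the reads of all 9 segments. The 6 R mice at d105 had 141, 333, 12224, 455, 228 and 2075 reads of it, and the 4 NR mice 3941, 1862, 721 and 1592. The PLX+PTX mice had 264, 1751, 927, 545, 0 and 95 reads, the PTX mice 2457 and 5982, and the WTNT mice 205, 4044, 1135, 9580 and 844. It was thus present with and without the tumor transgene, and the groups overlapped except that both PTX mice, at 1650 and 5485 RPM, lay above all PLX+PTX mice, whose highest was 632. At d95 it had 2 and 17 reads in R mice, 52 and 27 in NR mice and 42 in a PTX mouse. By reads it ranked first among all clonotypes in 7 libraries and in the first 10 in 14.

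Close relatives of this clonotype were few. In the libraries that held it, 5 listed clonotypes with 213 reads and 0 retained clonotypes differed from it by 1 base; 11 listed and 0 retained ones differed by 2. Its amino acids were listed under TRBV13-2 and TRBJ2-5 in all 29 cases, in no other segment.

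The TRBV13-1 clonotype with TRBJ1-2 had 3307 reads and made up 60.7% of TRBV13-1 reads. It was in 20 of 23 libraries at d105, with all 5 WTNT libraries among them (15, 352, 111, 862 and 25 reads). At d95 it was in 1 library with 1 read. The TRBV13-3 clonotype with TRBJ2-4 had 4704 reads, 70.0% of TRBV13-3 reads, in 17 libraries at d105 and in none at d95, and in the WTNT mice it had 6, 486, 97, 943 and 100 reads. The libraries that held it also held 21 retained clonotypes with 1120 reads that differed from it by 1 base, whereas the TRBV13-1 clonotype had 0 such neighbours. The TRBV14 clonotype with TRBJ2-5, at 538 reads in 13 d105 libraries, had 23 retained neighbours at 1 base with 726 reads, and the one with TRBJ2-4 had 0. The TRBV13-1 clonotype with TRBJ2-7, at 43 reads in 15 libraries, had 4 retained neighbours at 1 base with 117 reads.

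**Figure D5:**
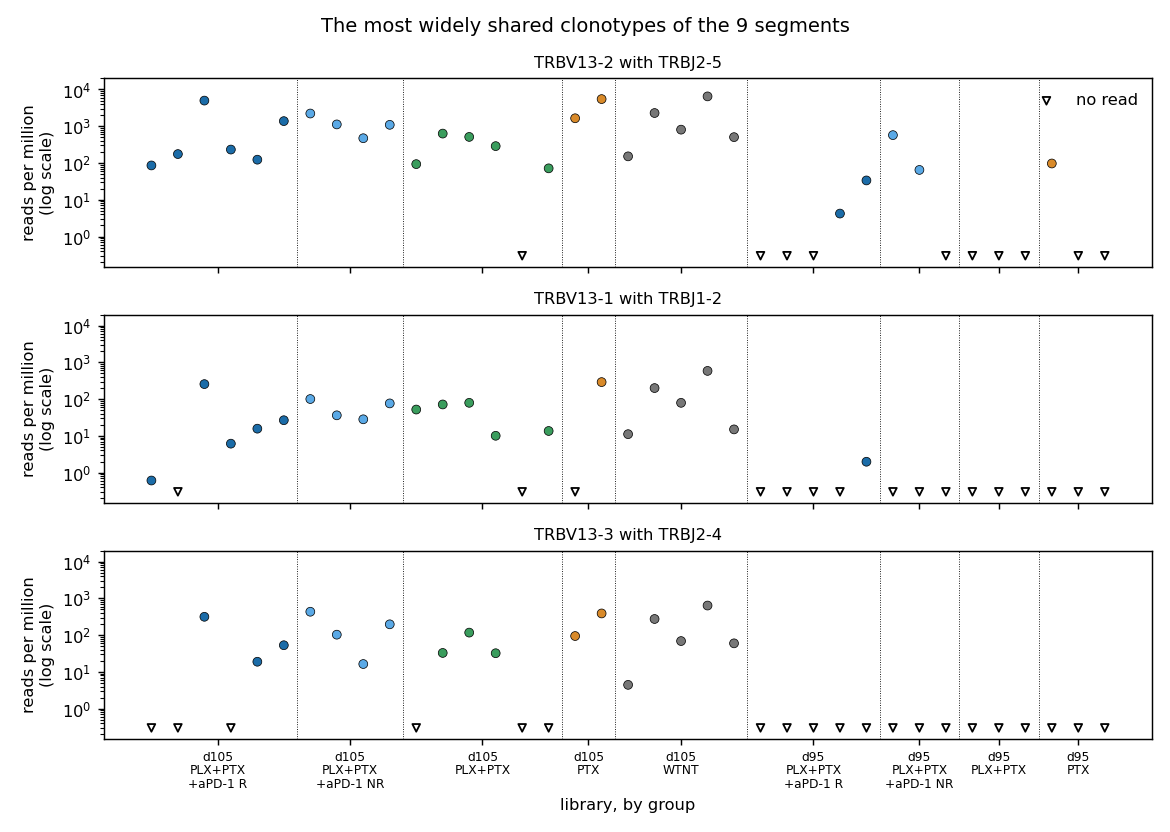
RPM (log scale) of the 3 most widespread clonotypes in each library, by group; open triangles mark libraries with no read. The TRBV13-2 clonotype is at 71.6 RPM or more in 22 of 23 d105 libraries, and the TRBV13-3 clonotype has no read in the 14 d95 libraries.

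The 3 most widespread clonotypes were high in the same d105 libraries. On log2 of RPM plus 1, Pearson's r over the 23 libraries was 0.83 (Spearman's rho 0.92) between the TRBV13-2 and TRBV13-3 clonotypes. The r was 0.69 (rho 0.72) for TRBV13-2 with TRBV13-1 and 0.72 (rho 0.80) for TRBV13-1 with TRBV13-3. The permutation p-values adjusted over the 3 pairs were at most 0.00018, and without the 2 libraries farthest from the median r was 0.89, 0.59 and 0.63. These pairs were chosen after the values were seen, the libraries share depth and treatment groups, and WTNT replicate 4 was the highest for each of the 3.

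The rule for named clonotypes gave 15. Beside the 6 above, 4 were in 5 to 9 libraries. TRBV13-3 gave 3 of them, with TRBJ2-4 in 9 libraries at 12 reads, with TRBJ2-5 in 6 libraries at 134 reads and with TRBJ2-3 in 5 libraries at 107 reads. TRBV13-2 with TRBJ2-3 gave the other, in 8 libraries at 556 reads. The other 5 were named for their share of a single library, and 3 of them came from the shallow d95 NR replicate 1, with 37 reads of a TRBV12-1 clonotype with TRBJ2-1, 14 of TRBV13-1 with TRBJ1-1 and 12 of TRBV13-2 with TRBJ2-4. Another TRBV13-2 clonotype, with TRBJ2-3, had 346 reads in d105 R replicate 3, and TRBV12-2 with TRBJ2-1 had 43 in d95 PLX+PTX replicate 2.

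In amino acids, a pair of these CDR3s are also those of widely used transgenic receptors, and were singled out after their values were seen. P14, a receptor for a peptide of lymphocytic choriomeningitis virus, uses TRBV13-3. Its beta CDR3 was listed under TRBV13-3 in 22 clonotypes of 14 libraries with 551 reads, in 12 base forms and under 4 TRBJ names. The beta CDR3 of OT-I, a receptor for an ovalbumin peptide that uses TRBV12-1, was listed under TRBV12-1 in 6 clonotypes of 4 libraries with 58 reads. Of the OT-I reads, 37 with TRBJ2-1 and 3 with TRBJ2-4 were in the shallow d95 NR replicate 1, and 18 with TRBJ2-7 were in 3 libraries. The 37 reads are those of the TRBV12-1 clonotype named above for its share of that library. That clonotype ended in the amino acids EQYF, as did the TRBV13-1 clonotype with TRBJ2-7. The TRBV12-2 clonotype with TRBJ2-1 ended in EQFF. The TRBJ names are those deposited, and whether these forms came from different TRBJ segments was not tested. Where the reads of both CDR3s came from was not tested.

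TRBV13-3 clonotypes were joined mostly to the second J cluster. The second J cluster (TRBJ2-1 to TRBJ2-7) took 93.6% ± 6.6 of TRBV13-3 clonotypes and 78.5% ± 0.6 of retained clonotypes in the same 9 libraries that had at least 10 TRBV13-3 clonotypes (SD). All 9 libraries were higher (exact sign-flip permutation test, 2-sided, adjusted p = 0.00533 over 15 segments tested); 80% of those segments passed. The lean was not particular to TRBV13-3. Low-use retained segments also had high shares, 91.0% ± 2.2 for TRBV30, 88.1% ± 2.5 for TRBV23 and 84.1% ± 5.1 for TRBV20 (SD, 37 libraries each). Pooled over libraries, the share among the 9 segments ran from 67.9% in TRBV12-2 to 97.6% in TRBV15. In the same pool, TRBJ2-4 took 44.9% of TRBV13-3 clonotypes and 9.14% of retained ones. TRBJ2-5 took 37.7% of TRBV13-2 clonotypes and 14.4% of retained ones. TRBJ2-7, the J segment most paired with retained segments at 22%, took 2.64% of TRBV13-3, 8.56% of TRBV13-2 and 8.4% of TRBV12-1 clonotypes. TRBV12-1 (79.2% ± 8.6 against 78.5%, adjusted permutation p = 0.745, 20 libraries) and TRBV13-2 (83.0% ± 9.9 against 78.6%, exact permutation adjusted p = 0.306, 8 libraries) did not pass for the J2 share. The other 6 segments had too few clonotypes per library for these tests.

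Sharing between mice differed among the segments. None of the 500 TRBV12-1 clonotypes was in another library. The mean share was 0% against 24.2% ± 0.6 of retained clonotypes in the same 20 libraries (permutation adjusted p = 1.36e-05, lower in 20 of 20), where 86.7% of 15 segments passed. Clonotypes were not matched by reads in this test. Of the TRBV12-1 clonotypes 90.4% had 1 read, and of retained clonotypes with 1 read, pooled over libraries, 9.81% were in another library. TRBV13-2 clonotypes were shared at 15.6% ± 6.9 against 24.1% ± 0.3 (exact permutation adjusted p = 0.0195, lower in 7 of 8 libraries). TRBV13-3 clonotypes were shared at 32.7% ± 13.4 against 23.8% ± 0.7 (exact permutation adjusted p = 0.0963, higher in 6 of 9). Of the distinct clonotypes, 18 of 172 TRBV13-3 ones were in at least 2 libraries, 6 of 219 of TRBV13-2, 5 of 170 of TRBV13-1, 3 of 67 of TRBV14 and 3 of 25 of TRBV12-2. TRBV16 had 1 of 23, TRBV17 1 of 3 and TRBV15 0 of 42.

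Reads per clonotype were low and CDR3s long in TRBV12-1. The median TRBV12-1 clonotype had 1 read in each of the 20 libraries, which on the log2 scale is 0 against 4.28 ± 0.35 for retained clonotypes (permutation adjusted p = 1.67e-05, lower in 20 of 20; 80% of 15 segments passed). For TRBV13-3 it was 0.18 ± 0.36 against 4.27 ± 0.35 (exact permutation adjusted p = 0.00488, lower in 9 of 9), and for TRBV13-2 2.28 ± 2.15 against 4.29 ± 0.32 (exact permutation adjusted p = 0.0811). The mean CDR3 length of TRBV12-1 was 18.4 ± 0.8 amino acids against 14.1 ± 0.02 (permutation adjusted p = 1.15e-05, longer in 20 of 20; 86.7% of segments passed), and the second starts described above move with it. TRBV13-2 (14.1 ± 0.5) and TRBV13-3 (14.0 ± 0.5) did not pass against 14.1 in retained clonotypes.

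Similarity to retained clonotypes of the same library was measured as a CDR3 within 1 substitution. In each library every base sequence was listed once only, so the same CDR3 bases under 2 segments could not occur and the share was 0 by construction in all segments. Within 1 base, 212 of the 1385 listed clonotypes (15.3%) had a retained neighbour, and 12.6% of retained clonotypes had one under another segment. The share was 31.0% for TRBV15, 29.8% for TRBV14, 27.4% for TRBV13-1, 17.6% for TRBV13-3, 12.8% for TRBV13-2, 8% for TRBV16 and 7.8% for TRBV12-1, and 0 of 28 TRBV12-2 and 0 of 4 TRBV17 clonotypes had one. In the library-wise test TRBV12-1 was lower than retained segments, 6.65% ± 3.33 against 12.8% ± 2.0 (permutation adjusted p = 1.36e-05, lower in 19 of 20; 86.7% of 15 segments passed). Only CDR3s of equal length can be within 1 substitution. The 350 TRBV12-1 clonotypes that held a whole retained CDR3 after their second start were therefore not counted for that match. The lower TRBV12-1 share thus does not measure how much of its sequence is shared with retained clonotypes. TRBV13-2 (13.2% ± 7.4 against 13%) and TRBV13-3 (17.1% ± 9.7 against 13.1%) did not pass. Single-read clonotypes had a neighbour in 16.6% of listed cases and in 5.75% of retained cases. With at least 10 reads the order was the opposite, 11.3% of listed and 14.4% of retained clonotypes.

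The start of the CDR3 was also compared between segments. Each listed CDR3 was compared with the start of its own segment and with those of the 12 retained segments, and the longer match was taken where they differed by at least 2 bases. The own segment matched longer in 768 clonotypes (55.5%) with 65641 reads. A retained segment matched longer in 283 (20.4%) with 1065 reads, and 334 were within 1 base. The longest of 12 retained matches was set against 1 own match, and retained clonotypes were not sorted in this way. These shares therefore have no background share beside them. A retained neighbour within 1 base was present for 3.91% of those that matched their own segment, for 47.3% of those that matched a retained one, and for 14.4% of the rest. A CDR3 sorted to its own segment followed that start at least 2 bases past any retained start. The order of these shares was thus in part set by the sorting. The own starts were themselves read from alignments of the listed clonotypes, 23 alignments for TRBV16 and 24 for TRBV12-2. A match to the own start was thus in part fixed in advance. The counts that follow describe the sequences and do not test which segment they came from. TRBV16 matched its own start in 23 of 25 clonotypes and TRBV12-2 in 21 of 28. TRBV13-2 did so in 166 of 257 clonotypes with 98.8% of its reads, and TRBV13-3 in 138 of 227 with 90.4% of its reads. TRBV14 did so in 12 of 94 clonotypes, with 19.5% of its reads, and a retained segment matched longer in 34 of 94 with 50.4% of reads, 538 of these 611 reads being the TRBV14 clonotype with TRBJ2-5. For TRBV13-1 the figures were 50 of 208 with 18.2% of reads, and 79.3% of its reads were within 1 base.

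The last 12 bases of the CDR3 were those most often seen with the named TRBJ in 81.7% of listed clonotypes and 93.4% of retained ones. They were those of another TRBJ in 25 listed clonotypes (1.81%), 24 of them with 1 read, and in 0.470% of retained clonotypes. Among clonotypes with 1 read the order for the named TRBJ was the opposite, 82.6% of listed and 77.7% of retained ones. Ends of another TRBJ were then seen in 2.64% of listed and 1.85% of retained ones.

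At d105 the rank correlation of the number of listed clonotypes with that of all clonotypes was negative. Over 23 libraries Pearson's r was -0.32 (permutation p = 0.134, adjusted 0.16) and Spearman's rho -0.48 (permutation p = 0.0222, adjusted 0.0445). Without the 2 libraries farthest from the median, r was -0.33 and rho -0.44 (adjusted permutation p = 0.147 and 0.0462). Over the 14 d95 libraries r was 0.40 and rho 0.50 (adjusted permutation p = 0.16 and 0.0697), and 0.53 and 0.62 without the 2 farthest. P-values were adjusted over the 2 days.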

How the data were processed

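TRB rearrangements were sequenced from lymph node DNA in 37 libraries. The deposited tables hold the clone count, in counts, as whole reads per clonotype, and a "Normalized clone count", a score that the authors made by rescaling the clone count, per the file headers, by a factor that the values show to be set per TRBV and TRBJ pair. They also hold alignment scores and a best V identity, deposited as a fraction, which was not used. No source used here names the clonotype caller, its version or the build. All listed CDR3s were productive.

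Rows were taken by best V gene, and 1376 of 1385 had a single V hit. Reads and clonotypes per segment were tested with edgeR 4.0.16 (quasi-likelihood, library totals as offsets, no filter, adjusted over all TRBV segments, threshold 0.05). Each day had 1 fit over its libraries, and the days were compared in the 32 MMTV-PyMT libraries with treatment as a covariate. The standard error is the log2 difference over the root of F. Segment measures were compared with retained segments of the same library by 2-sided sign-flip permutation, exact under 10 libraries and otherwise with 100000 resamples, for segments with at least 10 clonotypes in at least 6 libraries. The smallest p these resamples give is 1e-05. Alternatives used TMM, DESeq2 1.42.0, limma 3.58.1 on log2 of percent plus 0.001, filters and leaving out libraries. The fits were tested on simulated data. Named were the 9 segments, the 10 clonotypes in most libraries (ties by reads) and the 10 with the highest share of a library. The members, lists and tests were chosen with earlier results of these data known.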

Additional observations from a re-analysis of the deposited data

Results flagged for a closer look

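Within groups of 4 to 6 libraries, a library was looked at again when its gap to the nearest other value was large for the range of its group (Dixon's ratio at the 95% level). This was computed for 58 combinations of a group and a measure and met by 19. A chance rate of about 1 in 20 holds for separate, normally distributed values. These measures were skewed and overlapped, so the count of 19 cannot be compared with that rate. Where a single library of a group had reads, the ratio was 1 whatever their number. This was so for each TRBV17 value below and for TRBV12-2 in R replicate 4 of d95.

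R replicate 3 of d105 stood above its group in 7 measures. Its 9 segments held 0.647% of reads, against 0.174% in the next R library. It had 77.6 RPM for TRBV12-1, 52.3 for TRBV12-2, 453 for TRBV13-1, 5264 for TRBV13-2 and 509 for TRBV13-3. It was also the one R library with TRBV17, at 16.3 RPM.

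NR replicate 1 of d105 had 25 TRBV12-1 clonotypes with a second CDR3 start, against 11 in the next, and 146 RPM for TRBV12-2. WTNT replicate 2 had 51 such TRBV12-1 clonotypes, against 12 in the next WTNT library.

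TRBV12-2 had 3.77 RPM in PLX+PTX replicate 6 of d105, 16.8 in WTNT replicate 5 and 2.11 in R replicate 4 of d95. TRBV15 had 15.8 in NR replicate 4 of d105 and 21.7 in R replicate 5 of d95, and TRBV13-2 had 92.8 in the same d95 library. TRBV17, present in 1 library of each of 4 groups, had 17.9 in NR replicate 4, 7.53 in PLX+PTX replicate 6 and 23.2 in WTNT replicate 2.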

How the results depend on the processing

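No paired analysis was possible because the labels carry no replicate numbers shared between groups. Counts of listed segments past the threshold kept within 1.5 times of the reported count in most repeats; the exceptions follow, and their causes were not tested. For PLX+PTX against PTX at d105, limma on log2 of percent plus 0.001 called 1 segment in reads, as did limma on the normalized clone count; in clonotypes TMM called 2, DESeq2 2 and limma 3. For R against NR at d95, clonotypes of at least 10 reads gave 0 calls in place of 1 (TRBV13-1, log2 -1.74, adjusted p 0.616). Between days in clonotypes, filterByExpr, under which TRBV14 and TRBV16 had no value, gave 0 calls, limma 4 and clonotypes of at least 10 reads 0.

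Leaving out 1 library at a time gave 0 to 1 calls in reads for PLX+PTX against PTX at d105, for R against NR at d95 and for aPD-1 added at d95, and in clonotypes 0 to 1 for PLX+PTX against PTX at d105 and for R against NR at d95. It gave 4 to 5 in reads and 2 to 3 in clonotypes between days. Between days TRBV13-1 reads fell under the threshold with TMM (log2 1.27, adjusted p 0.0535) and with limma on the normalized clone count (0.38).

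For segment measures, requiring 20 clonotypes per library left 1 listed segment testable, TRBV12-1, so 0 of the 9 passed for the J2 share (TRBV12-1 at -3.97 percentage points, the opposite sign), 1 for sharing and 1 for reads per clonotype. With clonotypes of at least 10 reads, or d95 libraries only, no listed segment could be tested. Without the CDR3 bases of the TRBV13-2 clonotype with TRBJ2-5, TRBV13-2 had a mean length difference of -0.015 amino acids in place of 0.033, and its reads per clonotype passed (log2 -3.04, adjusted p 0.0361). Leaving out 1 library moved uncalled differences across 0: TRBV12-1 J2 share from -0.46 to 1.32 percentage points, TRBV13-2 similarity from -1.03 to 1.63, and length from -0.079 to 0.11 amino acids for TRBV13-2 and from -0.17 to 0.029 for TRBV13-3.

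For the correlation of listed with all clonotypes, reads in place of clonotypes gave rho -0.042 at d105, and leaving out the 2 farthest libraries gave rho 0.62 at d95 (adjusted p 0.0462). Chosen after seeing the data, leaving out 1 library kept the share of TRBV12-1 clonotypes with a second start at 72.5% to 74.2% and the matched share at 95.2% to 95.9%, while clonotypes of at least 2 reads gave 16.7%. Depth limits what can be seen at d95, where 3 reads are a larger share of a library than at d105.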
